A study of Ovis aries with 40 samples.

Results

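Ribosomal protein genes encode the proteins that, with ribosomal RNA, build the large and small subunits of the ribosome. They were taken as the non-control probes whose name in the scanner files starts with RPL or RPS followed by a digit or P, or whose description contains "ribosomal protein", leaving out mitochondrial ribosomal proteins and kinases. The rule found 26 of the array's 15008 probes, 15 of them by name and 22 by description, and no probe had to be left out as a kinase or a mitochondrial protein. These 26 probes stood for 14 genes out of 977 named genes on the array. The large subunit was represented by 6 genes, RPL4, RPL6, RPL10, RPL13A, RPL14 and RPL35A. The small subunit was represented by 8 genes, among them RPS6, RPS12, RPS15A, RPS20, RPS25, RPS26 and RPS27A; 1 gene of this subunit enters the counts and medians but is not described by itself. None of the P-stalk genes RPLP0, RPLP1 and RPLP2 was on the array by name, and members that the array may hold under another name or none were not counted.

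The samples were longissimus dorsi, the long muscle of the back, from Texel and Ujumqin sheep, each hybridised alone to a one-colour Agilent array of 60-base probes. Texel sheep carry a natural mutation of the myostatin gene, which encodes a brake on muscle growth, and Ujumqin sheep do not. Fetuses of both breeds were taken by caesarean section on gestation days 70, 85, 100, 120 and 135 (written as d), and Ujumqin lambs were sampled at birth, 1 month and 2 months. Each of the 13 groups had 3 animals, except Texel at 100 d with 4, and each of the 40 arrays held 1 animal. The labels speak of 3 ewes a stage, so some fetuses, such as those of Texel at 100 d, may be littermates. No Texel lambs were measured after birth, and all Ujumqin animals at 120 d, 135 d and 2 months were female, while all Texel fetuses at 120 d were male.

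Ribosomal proteins are needed in near equal numbers, because each ribosome holds a single copy of almost every one. Their messenger RNAs are among the most abundant in most cells, and their translation is controlled together with growth signals. A growing muscle needs many ribosomes to lay down its contractile proteins, and both ribosome content and the rate of protein synthesis per gram are known to be higher in young than in mature muscle.

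Among the probes that stood for the genes, those of RPL10, RPL35A and RPL4 had the widest range over the groups, so the sequences of their probes are shown. The 3 probes of RPL10 overlapped, and capitals mark the stretch that a probe shared with a mate of the same gene. They are therefore repeated readings of 1 stretch of the messenger RNA, not independent ones.
RPL10 probe 1: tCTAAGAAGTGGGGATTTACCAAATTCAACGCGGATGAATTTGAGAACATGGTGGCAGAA
RPL10 probe 2: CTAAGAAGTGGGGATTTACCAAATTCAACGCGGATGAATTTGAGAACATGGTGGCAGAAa
RPL10 probe 3: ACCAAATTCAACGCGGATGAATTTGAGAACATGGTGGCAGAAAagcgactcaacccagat
RPL35A: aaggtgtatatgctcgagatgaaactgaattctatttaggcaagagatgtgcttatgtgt
RPL4 probe 1: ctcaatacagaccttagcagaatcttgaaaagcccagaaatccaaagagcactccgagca
RPL4 probe 2: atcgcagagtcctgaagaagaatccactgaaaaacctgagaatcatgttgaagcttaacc
RPL4 probe 3: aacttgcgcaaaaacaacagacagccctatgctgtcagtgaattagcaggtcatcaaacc
The 3 probes of RPL4 hardly overlapped and read different stretches of that messenger RNA. Where a gene had several probes, the probe with the highest mean level stood for it, which was probe 2 for RPL10 and RPL4.

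Unless stated otherwise, values are log2 of the scanner's processed signal after quantile scaling over the 40 arrays, which gives every array the same set of levels. The probe standing for each of the 14 genes was among the brightest on the array, at or above the 96.6th percentile on every array, and no spot was saturated. Between 79.3 and 90.9 % of spots lay well above background, with the lowest shares on replicate 2 at birth and on replicate 1 of Texel at 135 d (81.3 %). The arrays sat on 5 slides that ran with the stages: Texel at 70 d and the lambs at birth shared slide 1, Ujumqin at 70 and 85 d slide 2, and Ujumqin at 135 d, Ujumqin at 2 months and 2 Texel arrays at 135 d slide 5. For stages without a common slide, stage and slide cannot be told apart except through the groups that were split between slides. The comparison of Ujumqin at 2 months with 135 d lay wholly on 1 slide.

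The levels of these genes drifted lower through fetal life and dropped further after birth when the arrays were quantile scaled. The median of the 14 genes averaged 17.78 ± 0.04 (log2, SD, n = 3) in Texel at 70 d and 17.52 ± 0.09 at 135 d. In Ujumqin it averaged 17.67 ± 0.06 at 70 d, 17.51 ± 0.05 at 135 d, 17.22 ± 0.07 at birth, 17.05 ± 0.10 at 1 month and 16.97 ± 0.08 at 2 months. The highest lamb at 2 months (17.05) lay below the lowest fetus of Ujumqin at 135 d (17.47), and the lambs at birth (17.14 to 17.26) lay between them.

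**Figure D1:**
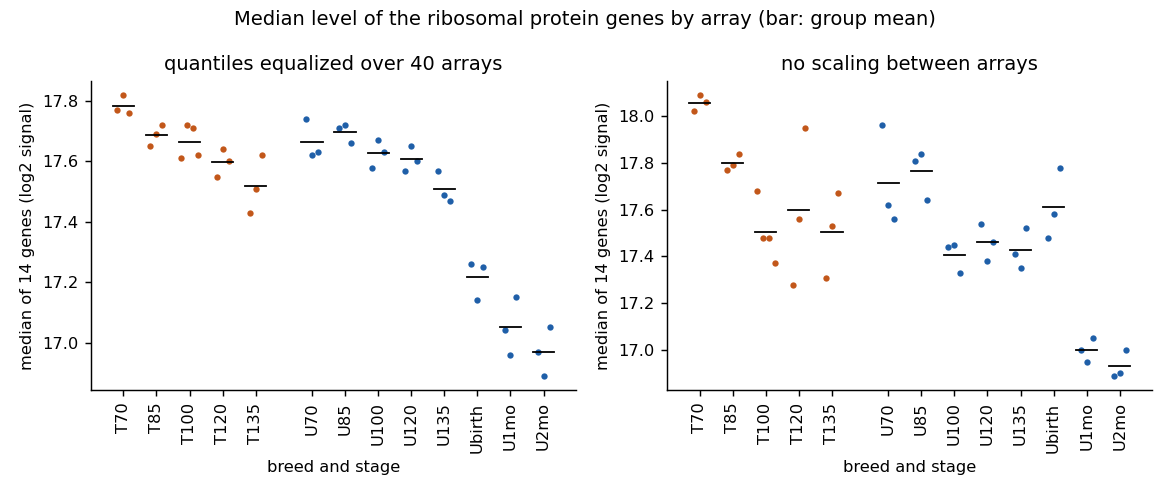
Median log2 level of the 14 ribosomal protein genes on each of the 40 arrays by group, after quantile scaling (left) and without scaling (right); each point is 1 animal, each bar the group mean, orange Texel and blue Ujumqin. After quantile scaling the Ujumqin mean went from 17.67 at 70 d to 16.97 at 2 months, whereas without scaling the mean at birth (17.61) stood above that at 135 d (17.43).

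The fetal direction depended on how the arrays were put on a common scale. The unscaled median of a whole array averaged 9.48 in Texel at 70 d and 8.30 at 135 d, and 9.14 and 8.42 in Ujumqin, so the older arrays were dimmer as a whole. Between 70 and 135 d in Texel, the median difference of the 14 genes was -0.24 after quantile scaling and -0.48 without scaling, but 0.46 after scaling to the 75th percentile and 0.71 after scaling to the median. For Ujumqin the same 4 values were -0.25, -0.45, 0.16 and 0.29. The median over all 14525 tested probes moved by -1.12 in Texel and -0.68 in Ujumqin without scaling, and by -0.17 in Texel with the 75th percentile, against -0.04 in both breeds with quantiles. The median of the 14 genes minus that of all tested probes was thus 0.63 in Texel under both scalings by a single factor and without scaling, and -0.19 with quantiles.

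**Figure D2:**
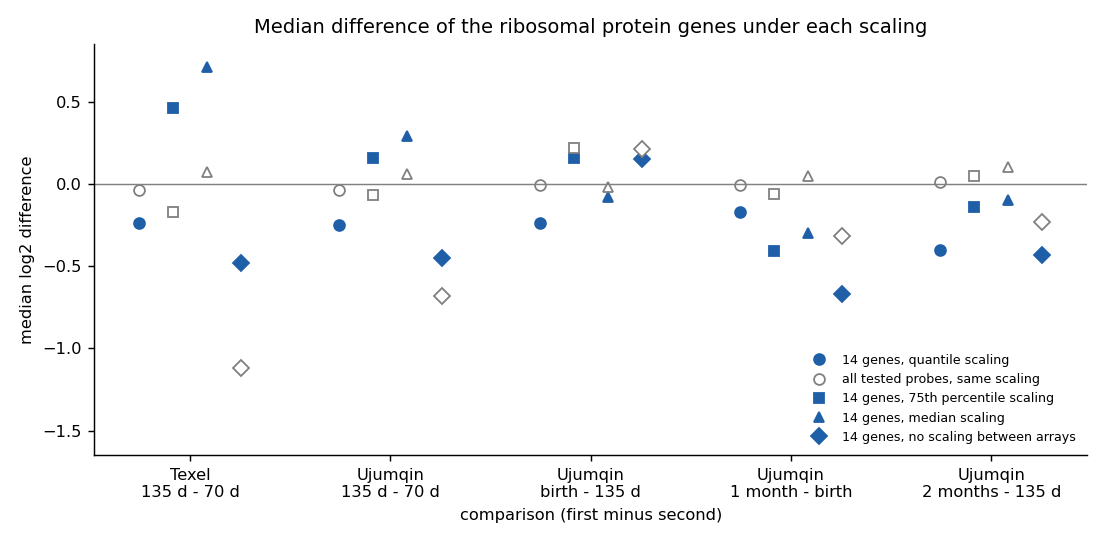
Median log2 difference of the 14 ribosomal protein genes (filled blue) and of all 14525 tested probes (open grey) in 5 comparisons under quantile scaling, 75th percentile scaling, median scaling and no scaling. The fetal medians lay below 0 with quantiles (-0.24 in Texel, -0.25 in Ujumqin) and without scaling but above 0 with the 75th percentile and the median, while birth turned from -0.24 to 0.16 with the 75th percentile and 1 month against birth stayed below 0 under all 4.

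In Texel, 5 of the 14 genes fell between 70 and 135 d of gestation under quantile scaling and none rose, with 4 of them turning above 0 under median scaling and 3 under 75th percentile scaling. The genes were RPL10, RPL35A and RPL4 of the large subunit and RPS15A and RPS26 of the small subunit. Over all tested probes 22.6 % were called lower and 20.4 % higher at an adjusted p under 0.05 (limma), and the median difference was -0.24 for the 14 genes, 13 of them below 0, against -0.04 for all probes. In bulk tissue, fewer cells of a type and less RNA per cell cannot be told apart. The share of calls that were higher was 47.4 % with quantiles and 6.11 % without scaling. The 70 and 135 d arrays had no slide in common, and with slide as a fixed term 1 gene was lower and the family median was -0.45. The count of 5 became 10 with the normexp background and 2 with these 2 groups fitted alone.

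RPL10, a protein that joins the large subunit late, in the cytoplasm, showed the widest fetal change. It read 17.44, 17.35 and 17.30 in Texel at 70 d and 16.14, 16.46 and 16.53 at 135 d. The 3 younger fetuses were all above the 3 older ones, with a gap wider than the spread of either group. The difference was -0.99 ± 0.15 (log2, SE; adjusted p = 2.34e-06), and it stayed below 0 with the 75th percentile (-0.35), the median (-0.10), no scaling (-1.29) and slide as a fixed term (-1.38), though of these it was called without scaling alone. RPL35A, a large subunit protein whose gene is mutated in some families with Diamond-Blackfan anaemia, read 17.02, 17.08 and 17.27 at 70 d and 16.17, 16.42 and 16.24 at 135 d. Its groups were also apart, and the difference was -0.84 ± 0.16 (adjusted p = 0.000128), turning to 0.09 with median scaling and not called with the 75th percentile (-0.16) or slide as a fixed term (-0.61).

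RPL4, which lines part of the tunnel through which the new protein leaves the ribosome, read 17.35, 17.59 and 17.73 in Texel at 70 d and 17.28, 16.84 and 16.95 at 135 d. The groups did not overlap, although the highest older fetus came close to the lowest younger one. The difference was -0.53 ± 0.15 (adjusted p = 0.00393) with quantiles. It was 0.18 and 0.42 with the 75th percentile and the median, and 0.01 with slide as a fixed term. RPS15A, of the small subunit, read 17.93, 17.89 and 17.77 at 70 d and 16.92, 17.50 and 17.70 at 135 d. A single low array, replicate 1 at 135 d, also one of the arrays of lowest detection, made much of that difference of -0.49 ± 0.14 (adjusted p = 0.00424), which was -0.27 and not called without it and turned above 0 with the 75th percentile (0.14) and the median (0.38), but was -1.34 and called with slide as a fixed term. RPS26, which sits near the site where messenger RNA leaves the small subunit, read 18.09, 17.92 and 17.74 at 70 d and 17.59, 17.52 and 17.30 at 135 d. Its difference of -0.45 ± 0.15 (adjusted p = 0.0187) was not called without replicate 1 at 70 d or without replicate 3 at 135 d (-0.36 each). It was 0.22 and 0.47 with the 75th percentile and the median, and -0.38 and not called with slide as a fixed term.

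**Figure D3:**
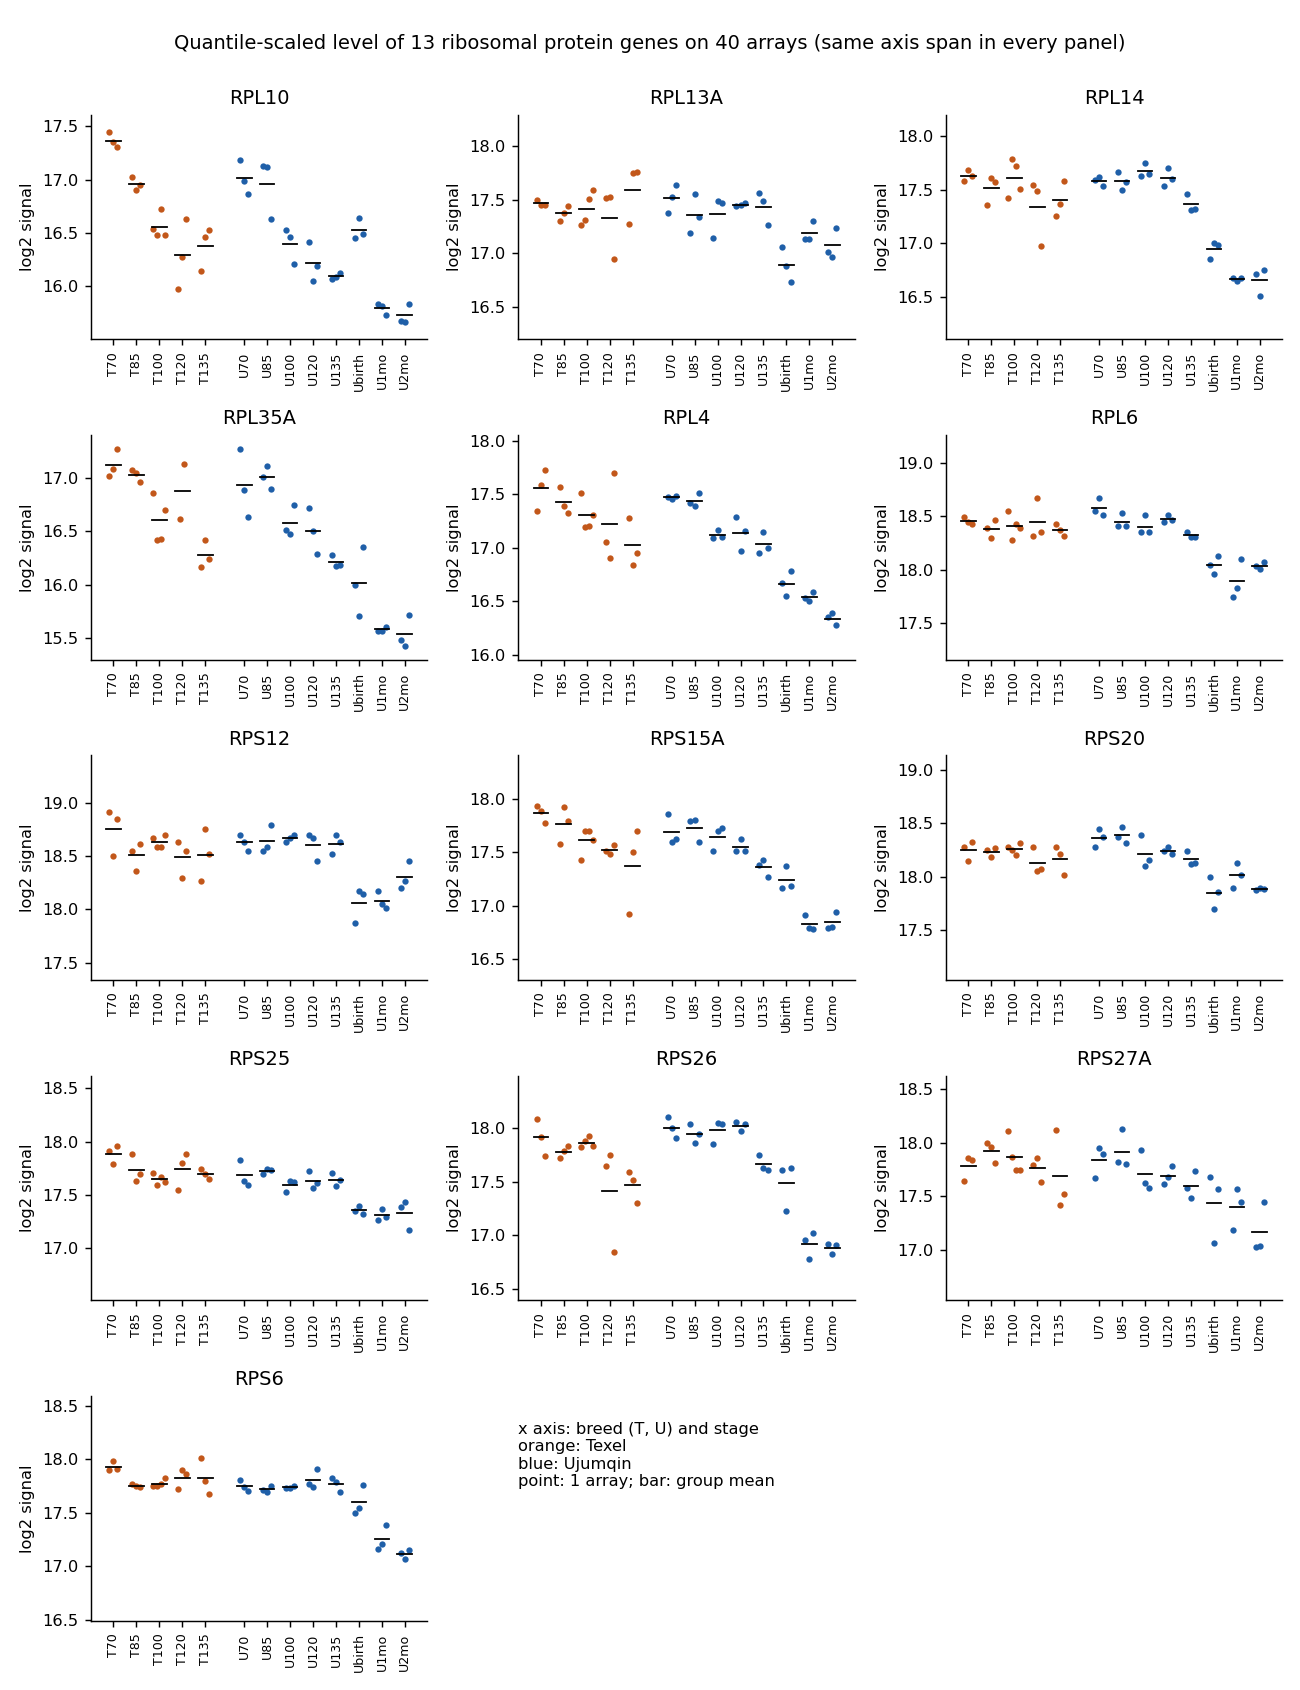
Log2 level after quantile scaling of 13 of the 14 ribosomal protein genes, 1 panel a gene with the same axis span, on each array by group; orange points are Texel animals and blue points Ujumqin animals. RPL10 has the widest course, from a mean of 17.37 in Texel at 70 d to 15.73 at 2 months, and RPS20 the narrowest, within 0.53, and fetal directions other than that of RPL10 turn in part under the 75th percentile and the median.

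In Ujumqin, 5 genes also fell between 70 and 135 d under quantile scaling and none rose, with 4 of them turning above 0 under median scaling and 3 under 75th percentile scaling. RPL10, RPL35A and RPL4 were called as in Texel, and RPL6 was called as well. Of all tested probes 20.9 % were called lower and 18.5 % higher, and the median difference was -0.25 for the 14 genes, 13 of them below 0, against -0.04 for all probes. Without scaling the share of calls that were higher went from 47.0 to 12.7 %. With slide as a fixed term, again without a slide in common, 3 genes were lower and the family median was -0.20. The count was 8 with array weights and 3 with these 2 groups fitted alone.

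RPL10 read 17.18, 16.99 and 16.86 in Ujumqin at 70 d and 16.07, 16.09 and 16.13 at 135 d. The older fetuses lay close together and far below the younger ones. Its difference was -0.91 ± 0.15 (adjusted p = 9.11e-06), and -0.23 and -0.10, not called, with the 75th percentile and the median. RPL35A read 17.27, 16.89 and 16.63 at 70 d and 16.28, 16.18 and 16.19 at 135 d. The younger fetuses were spread over a wider range but all stood above the older ones, and the difference was -0.71 ± 0.16 (adjusted p = 0.000894), turning to 0.07 with the median and not called with the 75th percentile (-0.06) or slide as a fixed term (-0.64).

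RPL4 read 17.48, 17.46 and 17.49 in Ujumqin at 70 d and 16.95, 17.15 and 17.00 at 135 d. The groups did not overlap, and the difference of -0.45 ± 0.15 (adjusted p = 0.0158) became 0.11 with the 75th percentile, 0.24 with the median and 0.07 with slide as a fixed term, and was -0.40 and not called without replicate 1 at 135 d. RPL6, of the large subunit, read 18.55, 18.67 and 18.51 at 70 d and 18.35, 18.31 and 18.31 at 135 d. Its difference was -0.26 ± 0.10 (adjusted p = 0.0468). This small difference had groups that did not overlap, but became 0.11 and 0.24 with the 75th percentile and the median. RPL6 lost its call in 23 of the 40 fits that each left out 1 array (-0.29 to -0.21 in those). The count of 5 became 2 without replicate 1 at 135 d, and 3 without replicate 2 or 3 at 135 d or without replicate 1 or 2 at 70 d.

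Across the 5 fetal stages under quantile scaling, the F test of limma called 6 genes in Texel, where 51.8 % of all tested probes were called. It called 4 genes in Ujumqin, where 37.9 % were. RPL10 (adjusted p = 1.12e-06), RPL35A (0.000408), RPS26 (0.0106), RPS15A (0.0217) and RPL4 (0.027) were among those that varied in Texel. In Ujumqin RPL10 (adjusted p = 4.2e-06), RPL35A (0.00129) and RPL4 (0.0357) were among them, and the count of 4 became 2 without replicate 1 or replicate 2 at 85 d and 8 with array weights. With slide as a fixed term the counts were 1 in each breed. The Texel count depended strongly on the scaling: it was higher under each of the other scalings, and median scaling called all 14 genes. In Ujumqin the count was also higher without scaling. The shares of all tested probes given here are those of quantile scaling, so they cannot be set against these higher counts.

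Between neighbouring fetal stages 2 calls were made in Texel and 1 in Ujumqin under quantile scaling, and array weights gave 7 over the Ujumqin steps. From 70 to 85 d none was called in either breed by limma, against 0.668 % of all probes in Texel and 0.275 % in Ujumqin, with 1 and 0 genes at an unadjusted p under 0.05. From 85 to 100 d none was called in Texel, with 7.49 % of all probes called and 2 genes at an unadjusted p under 0.05, although 3 were lower without scaling. Ujumqin showed 1 gene at that step, with 1.70 % of all probes called. That gene was RPL10, which read 17.13, 17.12 and 16.63 at 85 d and 16.53, 16.46 and 16.21 at 100 d. Its groups did not overlap, 1 fetus at 85 d lay close to those at 100 d, and the difference was -0.56 ± 0.15 (adjusted p = 0.0449), lost in 16 of the 40 fits that left out 1 array (-0.59 to -0.47 in those). It was not called either with the 75th percentile (-0.55), the median (-0.47), no scaling (-0.64) or slide as a fixed term (-0.67).

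From 100 to 120 d, RPS26 was the gene called in Texel, with 14.6 % of all probes called, and none was called in Ujumqin by limma, with 1.21 % of all probes called and 0 genes at an unadjusted p under 0.05. RPS26 read 17.82, 17.88, 17.93 and 17.83 in Texel at 100 d and 17.65, 17.75 and 16.84 at 120 d. Replicate 3 at 120 d stood far below every other fetus of both groups, and RPL13A (16.95) and RPL14 (16.97) were also lowest on that array among the Texel fetuses. The difference was -0.45 ± 0.14 (adjusted p = 0.0312), and it was -0.17 and not called without that array. It was not called either without replicate 1 (-0.46), 2 (-0.45) or 3 (-0.43) at 100 d, or with the 75th percentile (-0.19), the median (-0.06), no scaling (-0.30) or slide as a fixed term (-0.41). In Texel the family median of this step was -0.09 with no gene higher, but 0.21 with 1 gene higher under the 75th percentile and 0.34 with 2 higher under the median, and none was lower under either.

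From 120 to 135 d, RPL35A was the gene called in Texel, with 6.35 % of all probes called, and none in Ujumqin by limma, with 9.91 % of all probes called and 1 gene at an unadjusted p under 0.05. RPL35A read 16.62 and 17.13 on the 2 usable Texel arrays at 120 d, 1 spot having been dropped as an outlier by the scanner software, and 16.17, 16.42 and 16.24 at 135 d. The difference was -0.60 ± 0.18 (adjusted p = 0.0487), and it was not called with the 75th percentile (-0.40), the median (-0.39) or slide as a fixed term (-0.71). The family median of this Texel step was 0.01, but 0.42 with 1 gene higher under the 75th percentile and 0.49 with 2 higher under the median, and none was lower under either. In Ujumqin it was -0.10, but 0.34 with 1 gene higher and 0.39 with none called under the same 2 scalings. With the dropped spot kept the RPL35A difference in Texel was 0.84, and its call was lost in 29 of the 40 fits that left out 1 array (-0.67 to -0.35 in those; -0.35 without replicate 3 at 120 d). The number of calls over the Texel steps, 2, differed in 30 of those fits: it was 4 without replicate 1 at 120 d, 0 without replicate 2 or 3 at 100 d, and 1 in the rest of them. For Ujumqin the single call became 0 in 16 such fits and 2 without Texel replicate 3 at 120 d.

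Under these steps the scaling moved the balance of all calls as well. In Texel the share of calls that were higher went from 37.6 to 49.7 % with the median and 2.78 % without scaling from 85 to 100 d, from 45.6 to 60.7 and 23.8 % from 100 to 120 d, and from 64.5 to 2.77 % without scaling from 120 to 135 d. For Ujumqin it went from 82.5 to 93.1 % with the 75th percentile from 70 to 85 d, from 54.7 to 42.6 % with the 75th percentile and 23.3 % without scaling from 85 to 100 d, and from 54.6 to 65.9 % with the median and 8.03 % without scaling from 120 to 135 d.

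At birth, 7 genes were lower and 1 was higher than in Ujumqin fetuses at 135 d under quantile scaling, but 5 of the 7 turned above 0 with the 75th percentile and without scaling, and none of the 7 was called as lower under either of these or with the median. The large subunit genes RPL13A, RPL14, RPL4 and RPL6 and the small subunit genes RPS12, RPS20 and RPS25 fell, and RPL10 rose. Of all tested probes 22.1 % were called lower and 20.7 % higher, and the median was -0.24 for the 14 genes, 13 of them below 0, against -0.01 for all probes. The family median was 0.16 with the 75th percentile, -0.08 with the median and 0.15 without scaling, while the median of all probes was 0.22 with the 75th percentile and 0.21 without scaling. The share of calls that were higher went from 48.4 to 64.0 % with the 75th percentile and 65.2 % without scaling.

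RPL10 read 16.07, 16.09 and 16.13 in fetuses at 135 d and 16.45, 16.64 and 16.49 at birth. Every newborn was above every late fetus, against the direction of the fetal course. The difference was 0.43 ± 0.15 (adjusted p = 0.0178) and stayed above 0 with the 75th percentile (0.85), the median (0.61), no scaling (0.84) and slide as a fixed term (0.94). It was not called with slide as a fixed term, and it was 0.37 and not called without replicate 2 at birth. RPS12, of the small subunit, read 18.52, 18.70 and 18.63 at 135 d and 17.87, 18.17 and 18.14 at birth. The newborns were all below the fetuses, and the difference was -0.56 ± 0.13 (adjusted p = 0.000892), still below 0 but no longer called with the 75th percentile (-0.14), the median (-0.38), no scaling (-0.15) and slide as a fixed term (-0.16).

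RPL13A, which in myeloid cells is released from the ribosome after interferon and silences a set of messenger RNAs, read 17.56, 17.49 and 17.26 at 135 d and 17.06, 16.88 and 16.73 at birth. The groups were apart, and the difference was -0.55 ± 0.15 (adjusted p = 0.00433). It was not called with the 75th percentile or without scaling (-0.05 each) or with the median (-0.28), and it was 0.26 with slide as a fixed term. RPL14, of the large subunit, read 17.46, 17.31 and 17.32 at 135 d and 16.85, 17.00 and 16.98 at birth. Its groups were apart too, and the difference of -0.43 ± 0.12 (adjusted p = 0.00685) became 0.09 with the 75th percentile, 0.08 without scaling and 0.02 with slide as a fixed term. RPL4 (-0.36 ± 0.15, adjusted p = 0.0454), RPS20 (-0.31 ± 0.10, 0.0152), RPS25 (-0.29 ± 0.10, 0.0185) and RPL6 (-0.28 ± 0.10, 0.0308) changed less, and each turned above 0 with the 75th percentile and without scaling.

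The counts at birth rested on single arrays. Without replicate 2 at birth, the array of lowest detection, 4 genes were lower and 0 higher, and without replicate 1 at 135 d 3 genes were lower. RPL4 lost its call in 10 of the 40 fits that left out 1 array (-0.41 to -0.30 in those). RPL6 lost it in 5 (-0.28 to -0.23 in those, replicates 1 and 2 at birth and each replicate at 135 d), RPS20 without replicate 2 at birth (-0.23) or replicate 1 at 135 d (-0.27), and RPS25 without replicate 3 at birth (-0.27) or replicate 1 at 135 d (-0.26). Without both arrays of lowest detection (replicate 2 at birth and Texel replicate 1 at 135 d) 4 genes were lower and 0 higher. With slide as a fixed term no gene was called in either direction, and birth and 135 d had no slide in common.

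**Figure D4:**
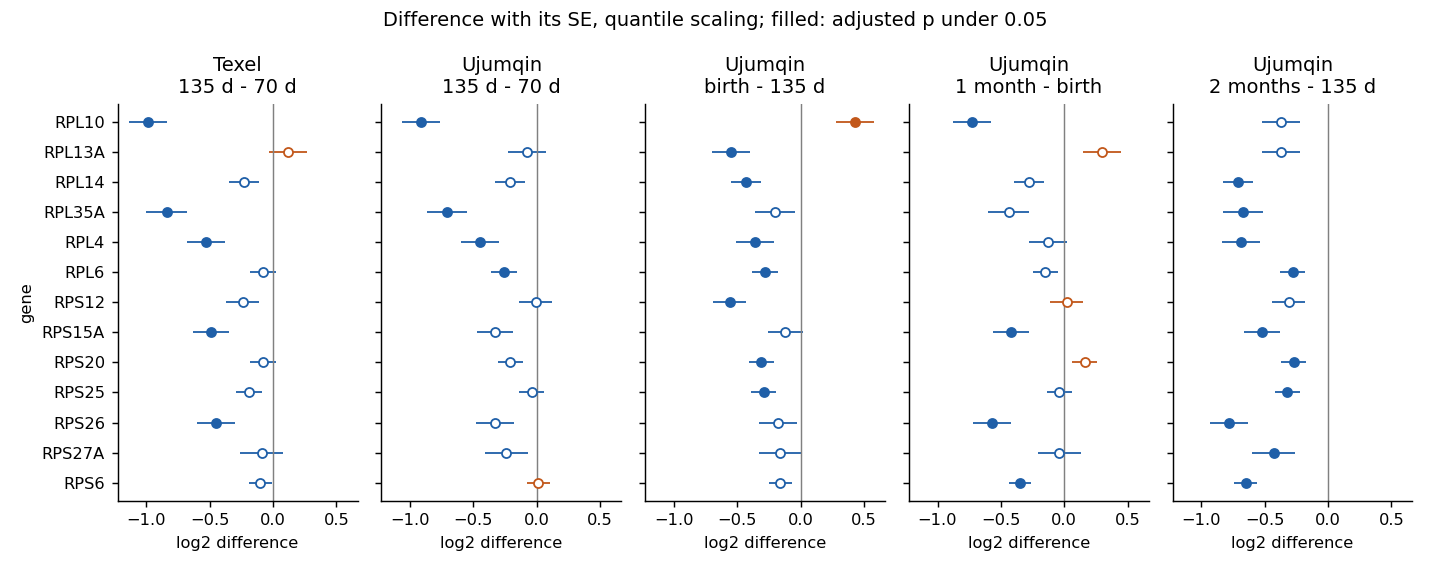
Log2 difference with its SE for 13 of the 14 ribosomal protein genes in 5 comparisons after quantile scaling; filled points passed the test at an adjusted p under 0.05, blue points lie below 0 and orange points above 0. Called genes numbered 5 in Texel and 5 in Ujumqin, 4 of which are drawn, for 135 against 70 d (most of them above 0 under the median scaling), 8 at birth (5 of them opposite without scaling), 4 for 1 month against birth and 10 for 2 months against 135 d (3 of them barely above 0 under the median).

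From birth to 1 month 4 genes fell and none rose, and no scaling turned the direction of any of them. Fewer genes were called with these groups fitted alone. RPL10 was the large subunit gene, and RPS26, RPS15A and RPS6 were of the small subunit. Of all tested probes 10.8 % were called lower and 10.2 % higher, and the median was -0.17 for the 14 genes, 11 of them below 0, against -0.01 for all probes. The family median was -0.41 with the 75th percentile, -0.30 with the median and -0.67 without scaling, where 7, 3 and 10 genes were lower, and the median of all probes was -0.32 without scaling, with the share of higher calls going from 48.5 to 12.6 %.

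RPL10 read 16.45, 16.64 and 16.49 at birth and 15.84, 15.82 and 15.73 at 1 month. The lambs at 1 month lay close together and below every newborn and every fetus. Its difference was -0.73 ± 0.15 (adjusted p = 0.000839), and -0.89 and -1.26 with the median and no scaling. RPS26 read 17.61, 17.23 and 17.63 at birth and 16.95, 16.78 and 17.02 at 1 month. All newborns were higher, with replicate 2 the lowest of them, and the difference was -0.57 ± 0.15 (adjusted p = 0.00829).

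RPS6, the small subunit protein phosphorylated by S6 kinases in response to growth signals, read 17.50, 17.54 and 17.76 at birth and 17.16, 17.21 and 17.38 at 1 month. The groups did not overlap, and the difference was -0.35 ± 0.09 (adjusted p = 0.00831). It was -0.28 and not called without replicate 3 at birth, and -0.36 and not called with median scaling. RPS15A read 17.17, 17.37 and 17.18 at birth and 16.91, 16.79 and 16.78 at 1 month. Every lamb at 1 month was below every newborn, and the difference was -0.42 ± 0.14 (adjusted p = 0.0273), not called without replicate 2 at birth (-0.36) or without replicate 2 or 3 at 1 month (-0.40 each). The family median was -0.24 without replicate 2 at birth, and with slide as a fixed term it was -0.08 and no gene was called.

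From 1 to 2 months no ribosomal protein gene was called by limma, and 0 had an unadjusted p under 0.05. Of all tested probes 4.41 % were called lower and 3.13 % higher. The median was -0.04 for the 14 genes, with single genes between -0.23 and 0.23, against 0.02 for all probes. It was 0.16 with the median scaling, and the median of all probes was -0.11 with the 75th percentile and -0.12 without scaling. The share of higher calls went from 41.5 to 19.0 and 12.7 % under those 2 scalings.

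The comparison of 2 months with 135 d, made on a single slide, held the most calls of the stage comparisons under quantile scaling, but not under the other 3 scalings. At 2 months 10 of the 14 genes were lower than in Ujumqin fetuses at 135 d under quantile scaling and none was higher, where 17.8 % of all tested probes were called lower and 15.5 % higher. All 14 genes lay below 0 with quantiles and 13 with the 75th percentile, but 8 with the median. Of the 10 called genes, RPL6 (0.02), RPS20 (0.04) and RPS25 (0.01) turned there. The rest of those no longer below 0 were not among the genes called with quantiles. The family median was -0.40 against 0.01 for all probes, and -0.14, -0.10 and -0.43 with the 75th percentile, the median and no scaling, with 3, 0 and 5 genes lower. Without scaling the median of all probes was -0.23 and the share of higher calls went from 46.5 to 21.5 %. With slide as a fixed term the count stayed at 10 and the family median at -0.40, since both groups sat on slide 5.

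RPS26 read 17.75, 17.63 and 17.61 at 135 d and 16.92, 16.82 and 16.91 at 2 months. Its groups were far apart, and the difference was -0.78 ± 0.15 (adjusted p = 0.0002). It was -0.45 and -0.40, not called, with the 75th percentile and the median. RPL14 read 17.46, 17.31 and 17.32 at 135 d and 16.71, 16.51 and 16.75 at 2 months. The lambs were all lower, and the difference was -0.71 ± 0.12 (adjusted p = 5.83e-05). RPL4 read 16.95, 17.15 and 17.00 at 135 d and 16.35, 16.39 and 16.28 at 2 months. Its groups did not overlap either, and the difference was -0.69 ± 0.15 (adjusted p = 0.000518).

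RPL35A read 16.28, 16.18 and 16.19 at 135 d and 15.48, 15.43 and 15.72 at 2 months. Each lamb lay below each fetus, and the difference was -0.67 ± 0.16 (adjusted p = 0.00219). It was -0.51 and called with the 75th percentile, and -0.47 and not called with the median. RPS6 read 17.82, 17.79 and 17.69 at 135 d and 17.12, 17.07 and 17.15 at 2 months. Both groups were tight and apart, and the difference was -0.65 ± 0.09 (adjusted p = 3.85e-06). It was -0.30 and -0.26, not called, with the 75th percentile and the median.

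The other 5 genes that fell by 2 months were RPS15A (-0.52 ± 0.14, adjusted p = 0.00379), RPS27A (-0.43 ± 0.17, 0.0497), RPS25 (-0.32 ± 0.10, 0.0137), RPL6 (-0.28 ± 0.10, 0.0347) and RPS20 (-0.27 ± 0.10, 0.0374). RPS15A (-0.19 and -0.15) and RPS27A (-0.11 and -0.07) were not called with the 75th percentile and the median. RPS27A, which is made as a fusion with ubiquitin, read 17.58, 17.48 and 17.73 at 135 d and 17.02, 17.03 and 17.44 at 2 months. Replicate 3 at 2 months lay just under the fetuses, and the call was lost in 29 of the 40 fits that left out 1 array (-0.50 to -0.36 in those). RPL6 and RPS20 lost their calls when any 1 of the 6 arrays compared was left out (-0.30 to -0.26 and -0.30 to -0.23), and RPS25 without replicate 3 at 2 months (-0.24) or replicate 1 at 135 d (-0.28). The count of 10 became 6 without replicate 1 at 135 d, and the family median -0.51 without replicate 3 at 2 months. RPL10 (-0.37, adjusted p = 0.0522), RPL13A (-0.37, 0.0606) and RPS12 (-0.31, 0.0605) were below 0 and not called.

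Under quantile scaling no ribosomal protein gene changed 2-fold in any comparison in which it was called. Called changes beyond 2-fold did occur under other settings, such as RPL10 in Texel fetuses (-1.29) and at 1 month (-1.26) without scaling, and RPL10 in Ujumqin fetuses (-1.43) with slide as a fixed term. The narrowest ranges of the 13 group means were those of RPS20 (0.53), RPS25 (0.57) and RPL6 (0.69), and 2.5, 3.5 and 6.9 % of all tested probes had a smaller range. The widest were those of RPL10 (1.64), RPL35A (1.58) and RPL4 (1.22), with 55.9, 53.4 and 34.3 % of probes below them. RPL10 and RPL35A thus had ranges near the middle of all tested probes, and the other members had ranges below it. The comparison was not matched for brightness. RPL10, RPL35A and RPL4 were highest in Texel at 70 d and lowest in lambs at 2 months. The correlation of a gene's 13 group means with the median of the other 13 genes went from 0.64 for RPL13A to 0.95 for RPL14 and RPL4, as a description over 13 groups that share the scaling.

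Genes can also be read against their fellow members on the same array, where a factor common to the array cancels. For each gene the median of the other 13 was subtracted on each array from its log2 level without scaling. The change of this difference between groups is given. RPL10 changed by -0.74 from 70 to 135 d in Texel and by -0.57 in Ujumqin, then by 0.64 at birth and by -0.71 at 1 month. The groups did not overlap in any of these 4 comparisons, and between 135 d and 2 months the change, also without scaling, was 0.00. RPL10 thus read lower, higher and lower again relative to its fellows, but the groups compared had no slide in common. Its highest group means were -0.56 in Texel at 70 d, -0.78 at birth and -0.83 in Texel at 85 d, the groups with arrays on slide 1. An effect of the slide on a single probe does not cancel here and was not tested. RPL35A changed by -0.55 in Texel and -0.39 in Ujumqin fetuses and by -0.33 from birth to 1 month, each without overlap, and by -0.09 at birth with overlap.

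RPL13A went the other way, by 0.43 from 70 to 135 d in Texel and by 0.60 from birth to 1 month, both without overlap, while its changes in Ujumqin fetuses (0.09) and at birth (-0.26) had groups that overlapped. From 135 d to 2 months it changed by 0.29, without overlap. RPS6 kept closest to the others, with a range of 0.29 over the 13 group means, and RPL35A strayed farthest, with 0.97, followed by RPL10 with 0.93. A difference within an array shows unequal change and does not show which gene stayed the same. Lack of overlap was not particular to the genes given here. From birth to 1 month RPS12, RPS15A, RPS20, RPS26 and RPL14 had none either, and from 135 d to 2 months RPS6 had none at a change of -0.06. The share without overlap over all tested probes was not computed.

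**Figure D5:**
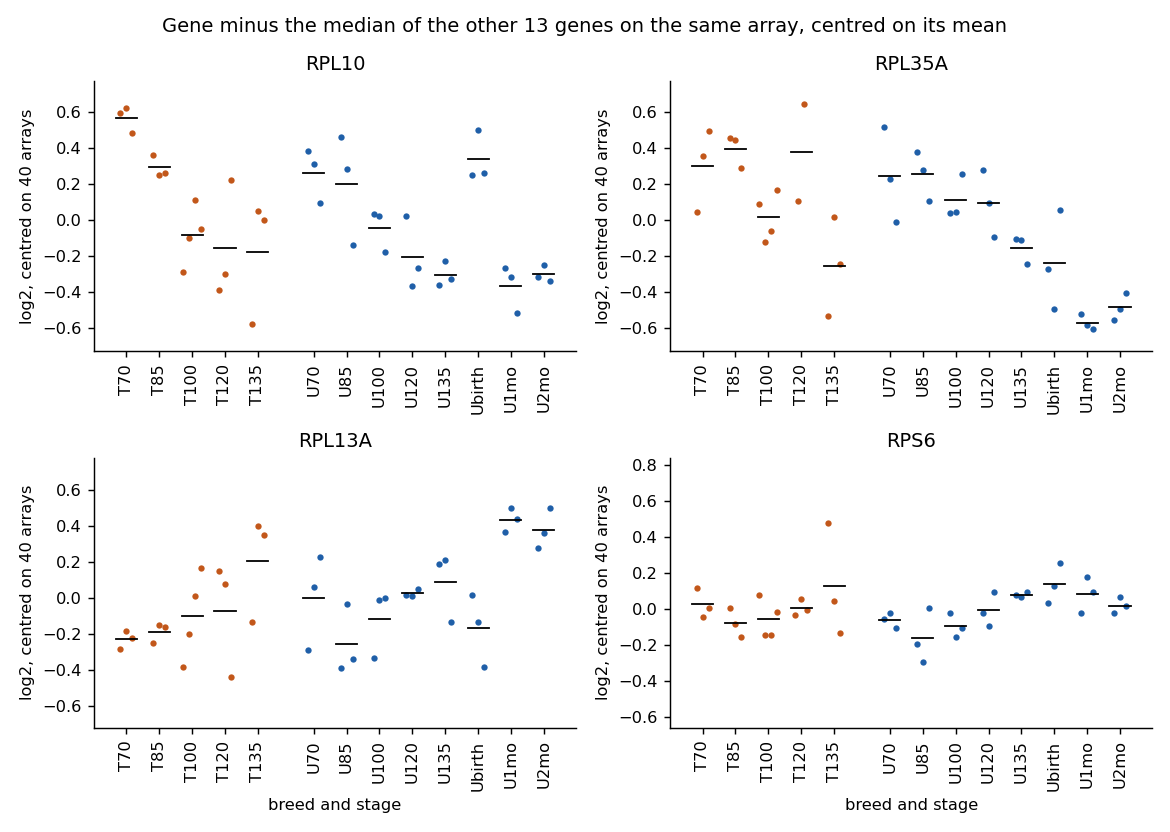
Log2 level without scaling of RPL10, RPL35A, RPL13A and RPS6 minus the median of the other 13 ribosomal protein genes on the same array, centred on the gene's mean over the arrays, by group (T Texel in orange, U Ujumqin in blue). Each point is 1 animal and each bar the group mean. RPL10 changed by 0.64 at birth and by -0.71 at 1 month, while RPS6 stays within a range of 0.29 of group means.

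The comparison of the breeds asked whether Texel and Ujumqin fetuses differed at a given stage. The myostatin mutation cannot be told apart from other differences between the breeds. With the arrays of each stage fitted alone, none of the 14 genes was called by limma at any of the 5 fetal stages, where in their order 0.117, 0.0207, 0.0138, 0.0344 and 0.0207 % of all tested probes were called. The single fit over all 13 groups called 1 of them at 120 d and 0 at the other stages. At an unadjusted p under 0.05 the counts were 1, 0, 0, 0 and 0, the 1 being RPL10 at 70 d (0.36 higher in Texel), and a test per probe with unequal variances and the same adjustment also called 0. The family medians, Texel minus Ujumqin, were 0.10, -0.01, 0.04, -0.00 and 0.05, and within slides 0.05 at 120 d and 0.03 at 135 d, from 2 Texel and 3 Ujumqin arrays each. A slide shared at 85 d held 1 Texel array and one at 100 d held 1 Ujumqin array, so no value is given, and no slide was shared at 70 d. From 70 to 135 d those medians were 0.06, -0.16, 0.15, 0.19 and 0.18 with the 75th percentile, -0.03, -0.24, 0.05, 0.20 and 0.21 with the median, and 0.32, 0.04, 0.10, 0.15 and 0.10 without scaling, so the sign turned with the scaling at 70, 85 and 120 d. Without scaling the median of all probes was 0.32 at 70 d and 0.24 at 85 d. At 70 d the share of higher calls went from 47.1 to 85.5 % with the 75th percentile and 96.3 % without scaling.

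Taken over the 5 fetal stages, 1 gene differed between the breeds, with 6.18 % of all tested probes called. RPS26 was lower in Texel by a mean of -0.24 ± 0.07 (Texel minus Ujumqin, adjusted p = 0.0317). Its group means were 17.92, 17.78, 17.86, 17.41 and 17.47 in Texel and 18.00, 17.95, 17.98, 18.02 and 17.67 in Ujumqin from 70 to 135 d. Texel was lower at each of the 5 stages, most at 120 d, where Texel replicate 3 read 16.84 against 17.65 and 17.75 for its mates and 18.06, 17.97 and 18.04 in Ujumqin. The call was lost without any 1 of 8 arrays (replicate 3 of 70 d, 1 of 85 d and 3 of 135 d for Texel, replicate 1 of 70, 85 and 135 d and replicates 2 and 3 of 100 d for Ujumqin; -0.23 to -0.22), and 2 genes were called without Texel replicate 1 at 120 d. RPS26 was not called under any of the other 3 scalings, or with slide as a fixed term (-0.24). Across all probes the share of higher calls went from 45.3 to 63.2 % with the 75th percentile and 85.3 % without scaling. RPL10, at 0.17, did not pass (adjusted p = 0.111).

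Whether the breeds took a different course over the fetal stages was tested as an interaction. No ribosomal protein gene was called by limma, with 0 at an unadjusted p under 0.05 and 0.207 % of all tested probes called. The fetal fall called in 1 breed and not in the other, as for RPS26 and RPS15A in Texel or RPL6 in Ujumqin, is therefore not shown to differ between them. Males and females did not differ by limma in any of the 14 genes, with 0 at an unadjusted p under 0.05 and 0.0551 % of all tested probes called.

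Several genes were read by more than 1 probe. Over the 13 group means, the other probes of RPL10 correlated with the one standing for the gene at 0.98 and 0.96, those of RPL14 at 0.99, RPS26 at 0.98, RPS27A at 0.95 and RPS12 at 0.72, and all of these overlapped by 42 to 59 bases. The 3 separate probes of RPL4 correlated at 0.96 and 0.88. No gene had probes called in opposite directions. For RPS25 the probes differed in range: of 2 probes made from an expressed sequence tag, the one well above background on all 40 arrays ranged over 2.91, against 0.57 for the coding probe that stood for the gene and 0.46 for another probe. That tag probe correlated with the coding probe at 0.79, the other probe did so at 0.39, and the tag probe changed by -2.72 from 135 d to 2 months. The second tag probe was not well above background on 2 of the 3 arrays at 2 months, so its range and change are not given. The tag probes share a stretch of 20 bases, and which part or form of the transcript they read was not tested.
RPS25 tag probes, shared stretch: CACCAAGAAATGTAGGCATG

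A pair of probes outside the family shared sequence with its members. A probe to a sequence tag on the same strand as RPL35A, sharing 29 bases with its probe, went from 16.24 in Texel at 70 d to 14.76 at 2 months and correlated at 0.92 over the 13 group means. A probe on the strand opposite to RPL4, sharing 59 bases, went from 9.56 in Texel at 70 d to 10.68 at 2 months and correlated at -0.92. It was well above background on all 40 arrays, and which transcript it read was not tested.

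Few other genes of translation were on the array by name. Of 9 genes listed as elongation factors or related to them 3 were found and tested, and EEF1A1, which brings aminoacyl-tRNA to the ribosome, fell between 70 and 135 d in Texel (-0.68, adjusted p = 0.00473) and Ujumqin (-0.58, 0.0155; -0.18 and -0.25 in the 2 breeds with the median), at birth (-0.99, 0.000141) and from 135 d to 2 months (-1.31, 4.47e-06). TPT1, which was put in that list but is not itself an elongation factor, was called in none of these. EEF1E1 rose at birth (0.61, adjusted p = 0.0344, but 0.37 with the median). Of 40 initiation factors 2 were tested. PABPC1, the poly(A)-binding protein, fell between 70 and 135 d in Ujumqin (-0.65, adjusted p = 0.00372, but -0.37 with the median) and from birth to 1 month (-0.70, 0.00535). EIF1AX fell at birth (-0.54, adjusted p = 0.0012, but -0.24 with the 75th percentile and -0.25 without scaling). Of 29 ribosome biogenesis genes only DKC1, which modifies ribosomal RNA, was tested, and it was called in none of the stage comparisons.

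Of 18 genes that signal growth to the ribosome 3 were tested, and IGF2, a fetal growth factor, fell between 70 and 135 d in Texel (-0.62, adjusted p = 0.00784, but 0.05 with the 75th percentile and 0.30 with the median) and Ujumqin (-0.69, 0.00371, but -0.22 and -0.09 under the same 2 scalings), at birth (-0.47, 0.0434, but -0.04 with the 75th percentile and -0.05 without scaling), from birth to 1 month (-0.78, 0.00424) and from 135 d to 2 months (-2.25, 5.69e-10). Those IGF2 values are of 1 bright probe. Another, dimmer probe of IGF2 fell more widely with quantiles, from 15.51 at 70 d to 13.1 at 135 d in Texel and from 14.83 to 13.01 in Ujumqin. It read 12.74 at birth and 9.46 at 2 months. IGF1 fell between 70 and 135 d in Texel (-0.50, adjusted p = 0.0221) and was not called in Ujumqin (0.07), and it fell at birth (-0.88, 0.000186) and from 135 d to 2 months (-1.32, 1.18e-06). IGF1R fell between 70 and 135 d in Ujumqin (-0.69, adjusted p = 0.0116) and at birth (-0.66, 0.015). Among complexes of other function, 0 of 4 proteasome genes were lower at 135 than 70 d. Higher were 1 in Texel, PSMB8 (1.9), and 2 in Ujumqin, PSMB8 (1.99) and PSMD4 (0.78), while PSMA6 and PSMB7 were not called in either breed. Of 3 genes listed under the respiratory chain 0 were lower and 2 higher in each breed, COX15 (1.35 and 1.47) and NDUFA12 (1.1 and 1.08). No gene of the mitochondrial ribosome was on the array by name.

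Some genes often used as a reference also moved. Of 14 listed 5 were tested, and between 70 and 135 d in Texel PPIA fell (-0.81, adjusted p = 5.75e-06, but 0.15 with median scaling) while GAPDH rose (3.02, 1.28e-09). In Ujumqin PPIA was at -0.60 (adjusted p = 0.000331) and GAPDH at 2.79 (6.14e-09). GAPDH kept its direction under every scaling in both breeds, while PPIA in Ujumqin shrank to -0.20 with the 75th percentile and -0.07 with the median. B2M rose as well (1.37 in Texel and 1.33 in Ujumqin), but TBP was not called in these comparisons (-0.19 and -0.13). ACTB was well above background on 17 arrays only.

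Markers of other cells moved with stage beside the ribosomal protein genes, and their part in these results was not tested. All 3 tested markers of proliferating cells of 17 listed, PCNA, CCNA2 and CDC2, fell between 70 and 135 d in Texel (median -2.77) and Ujumqin, from birth to 1 month (-1.99) and from 135 d to 2 months (-1.47). The probe of PCNA was the brightest, and 0 of the 3 markers were called at birth. Their summed level on single arrays was 14.02, 13.83 and 13.87 in Texel at 70 d and 12.06, 12.16 and 12.51 at 135 d. In Ujumqin it was 13.56, 13.84 and 13.90 at 70 d against 12.53, 12.49 and 12.55 at 135 d, and the lambs of 2 months read 12.08, 11.71 and 11.73. The younger fetuses were higher than the older ones without overlap in both breeds. The 3 tested matrix genes of 9 listed, COL1A1, COL3A1 and DCN, fell in both fetal comparisons (median -1.34 in Texel, -0.96 in Ujumqin) and at birth (-0.83), and 2 of the 3 fell from 135 d to 2 months (-0.83). However, DCN, whose probe was the brightest of the 3, was 0.25 in the Texel fetal comparison with the median scaling.

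HBB, the beta chain of haemoglobin and the 1 tested of 11 erythroid markers, read 16.61, 17.08 and 16.50 at 135 d, 13.15, 16.47 and 16.26 at birth, 13.35, 12.15 and 13.78 at 1 month and 11.28, 8.94 and 11.16 at 2 months. Lambs lost most of this signal after birth, with replicate 1 at birth already low, and the difference between 2 months and 135 d was -6.27 (adjusted p = 2.39e-07). Of 6 myogenic progenitor markers 3 were tested, with the probe of MYOD1 the brightest. MYF5 and MYOD1 fell in each fetal comparison (median of the 3 -0.82 and -0.86) and from 135 d to 2 months (-1.22). MYOG was not called in these (0.32 in Texel and 0.22 in Ujumqin fetuses, and 0.24 at 2 months). At birth MYOG rose (1.55, adjusted p = 3.3e-05) and MYF5 fell (-0.83, 0.0348). Of 6 adipocyte markers 3 were tested, 2 higher and 1 lower in each fetal comparison, with the probe of LPL the brightest. Of 13 leukocyte markers 5 were tested, with 1 higher in Texel and 1 lower in Ujumqin at 135 d, and 3 higher at 2 months than at 135 d. The probe of TYROBP was the brightest by its mean over the 40 arrays, although not in every group. That of CD3E read higher at 2 months (10.23 against 9.80) and in Texel at 135 d, and that of LYZ in Texel at 120 d. CD4 was well above background on 4 arrays only. No endothelial (6 listed) or nerve (4 listed) marker was on the array by name.

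Of 18 muscle fibre markers 1 was tested, which bears on the tissue label. MYLPF, a regulatory light chain of fast myosin, was well above background on all 40 arrays, with group means from 18.45 to 18.77. Under quantile scaling it was not called between 70 and 135 d in either breed, at birth, at 1 month or at 2 months. Its fetal difference was 0.22 in Texel and 0.08 in Ujumqin, but 0.96 and 0.30 with the 75th percentile and 1.20 and 0.43 with the median. Without scaling it was 0.01 in Texel and -0.30 in Ujumqin.

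Over 1502 other named probes, those whose 13 group means ran most like the median of the ribosomal protein genes were CD247 (Pearson r = 0.99), the elongation factor-1 alpha clone LOC100125610 (0.98), CYTH2 (0.98), a probe of IGF2 (0.98) and BBC1 (0.97). CD247, the zeta chain of the T cell receptor complex, was a dim probe that went from 8.0 in Texel at 70 d to 5.42 at 2 months. BBC1 is an older symbol of RPL13, a large subunit protein that the rule did not take, and it went from 17.73 to 16.08. The most opposite were both probes of MDD2 (-0.96 and -0.95), XCL1 (-0.95), JUNB (-0.95) and the CD1B probe LOC443441 (-0.95). JUNB, a component of the transcription factor AP-1, went from 7.38 in Texel at 70 d to 10.41 at 2 months. These correlations describe 13 group means that share arrays and scaling.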

How the data were processed

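Signals of 40 one-colour Agilent arrays of sheep longissimus dorsi, 1 animal each, were read from the scanner files, which per the file headers hold processed signal as intensity, made by the authors with Agilent Feature Extraction 10.5. The deposited table holds the authors' normalized log2 values (median of every column 8.61; correlation with the scanner values at least 0.9965) and served as an alternative. Outlier spots were left out, signals floored at 1, put on log2 and quantile scaled over 40 arrays. Probes well above background on at least 1 array were tested (14525). limma 3.58.1 in R 4.3.3 fitted the 13 groups, and for the breeds at a stage the arrays of that stage, with Benjamini-Hochberg adjustment over all tested probes at 0.05. Python 3.11.15, numpy 2.4.6, pandas 2.3.3 and matplotlib 3.10.9 made tables and figures. The code was tested on simulated data. Precision is bounded by having 3 or 4 arrays a group.

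The probe with the highest mean level stood for a gene. Named genes were, per comparison, up to 5 a direction with the largest change among those called, the 3 narrowest and 3 widest ranges, those called between breeds, and the 5 most and least alike other probes; RPS6, RPS25 and RPS27A were named by symbol, and other called genes were named after their values were seen. Members and lists (translation factors, biogenesis, growth signalling, reference genes, proteasome, respiratory chain, cell markers) were chosen with earlier results of these data known. Of the 26 probes 15 matched the RefSeq table of assembly ARS-UI_Ramb_v3.0, 13 with the same symbol and 2 only as LOC entries. Alternatives changed the scaling, values, filter, floor, probes per gene, model terms, threshold and arrays used.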

Additional observations from a re-analysis of the deposited data

How the results depend on the processing

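Signal over background did not limit the 14 probes that stand for the genes, but the scale of the arrays did. Of the calls of the single genes described, refits without 1 array kept 1249 and lost 151, all with the same direction. With a floor of 16, a filter on all 40 arrays and an intensity trend, all 35 calls of single genes held. Using no scaling and leaving out the 2 arrays of lowest detection were chosen after seeing the data. Spike-in scaling was not run, since most of those spots were not well above background (12.5 % were on the lowest array), with a slope of 0.0. A sex covariate for the breeds at 120 d and slide as a fixed term at 70 d could not be fitted. The cause was not tested for any change listed here.

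With 75th percentile scaling, Texel at 135 against 70 d had 0 lower and 9 higher genes (median 0.46; RPL4 0.18, RPS15A 0.14, RPS26 0.22). Ujumqin had 0 lower and 4 higher (0.16; RPL4 0.11, RPL6 0.11). Birth had 0 lower and 2 higher (0.16; RPL14 0.09, RPL4 0.09, RPL6 0.10, RPS20 0.14, RPS25 0.18). At 1 month 7 were lower (-0.41), at 2 months against 135 d 3 (-0.14), the Texel course held 11, the Texel steps 2, both higher, and 0 differed between breeds over the stages. From 120 to 135 d the Texel median was 0.42.

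With median scaling, Texel had 0 lower and 10 higher (0.71; RPL35A 0.09, RPL4 0.42, RPS15A 0.38, RPS26 0.47). Ujumqin had 0 lower and 5 higher (0.29; RPL35A 0.07, RPL4 0.24, RPL6 0.24). Birth had 0 lower (-0.08), 1 month a median of -0.30, 2 against 1 month 0.16, and 2 months against 135 d 0 lower (-0.10; RPL6 0.02, RPS20 0.04, RPS25 0.01). The Texel course held 14, the Texel steps 4, all higher (0.49 from 120 to 135 d), the Ujumqin steps 0 and the breeds over the stages 0.

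With no scaling between arrays, Texel had 12 lower (-0.48), Ujumqin a median of -0.45, birth 0 lower (0.15; RPL14 0.08, RPL4 0.08, RPL6 0.09, RPS20 0.13, RPS25 0.17), 1 month 10 (-0.67) and 2 months against 135 d 5. The courses held 12 in Texel and 7 in Ujumqin, the steps 4 and 0, and the breeds over the stages 0. With the normexp background Texel had 10 lower, the Ujumqin steps 3 and the breeds 0. The deposited table gave 1 call over the Texel steps and RPL35A at 135 against 120 d as 0.85; keeping outlier spots gave 1 and 0.84.

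With slide as a fixed term, Texel had 1 lower (-0.45; RPL4 0.01), Ujumqin 3 (RPL4 0.07), birth 0 lower and 0 higher (RPL13A 0.26, RPL14 0.02), 1 month 0 (-0.08), the courses 1 and 1, the Texel steps 1 and the breeds 0. With slide as a random block the steps held 1 and 0. With sex as a covariate Ujumqin had 3 lower and the Texel steps 1. Array weights gave 8 lower in Ujumqin, 8 in its course and 7 over its steps. With the replicate block the steps held 1 and 0; replicate numbers do not pair animals, since arrays of the same number correlated at a median of -0.01 and of other numbers at 0.

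At an adjusted p under 0.01, Ujumqin had 2 lower, birth 3 lower and 0 higher, 2 months against 135 d 6, each course 2, the steps 0 and 0 and the breeds 0. With a 2-fold change as well as an adjusted p under 0.05, each of these counts for stages, steps and breeds over the stages was 0. With the 2 groups fitted alone, Texel had 2 lower, Ujumqin 3, birth 3, 1 month 1, 2 months against 135 d 6 and the steps 1 and 0. The 31 fetal arrays alone gave steps of 1 and 0, and 1 fit over all 13 groups gave 1 gene between breeds at 120 d.

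With each probe by itself, Texel had 8 lower, Ujumqin 10, birth 12 lower and 2 higher, 2 against 1 month 1 (-0.11), 1 month a median of -0.23, 2 months against 135 d 19 (-0.51), the Ujumqin course 7 and the steps 5 and 2. With the mean over the probes of a gene, the medians were -0.28 at 1 month and -0.51 at 2 months against 135 d, the Ujumqin course held 2 and the breeds 0. Without the 2 arrays of lowest detection, birth had 4 lower and 0 higher, the Texel steps 1, and 1 month a median of -0.24.

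Leaving out 1 array at a time, Texel had 4 to 7 lower, Ujumqin 2 to 7, birth 3 to 7 lower and 0 to 1 higher, 1 month 3 to 5 (-0.24 to -0.14) and 2 months against 135 d 6 to 13 (-0.51 to -0.36). The courses held 4 to 6 and 2 to 5, the steps 0 to 4 and 0 to 2, and the breeds over the stages 0 to 2. From 120 to 135 d in Texel the family median was -0.06 to 0.02.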
